A study of Mus musculus with 24 samples.

Results

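Polyamine synthesis and control was followed through 10 genes chosen by name: Odc1, Amd1, Srm and Sms for synthesis, Oaz1, Oaz2 and Azin1 for the control of ornithine decarboxylase, and Sat1, Smox and Paox for catabolism. Of these, 6 genes (Odc1, Srm, Oaz2, Azin1, Sat1 and Smox) had a probe set annotated to that gene alone, 1 each, in the platform annotation used here. Probe sets with 1 gene symbol name 19661 genes there. Amd1, Oaz1, Sms and Paox are not analysed here. The rule that chose the genes named no measured value, but the choice was made with earlier results of these data known. All 6 measured genes passed the filter on low values and were tested among 14830 genes.

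The study asked what a reduced dose of the cap-binding translation factor eIF4E does to messenger RNA and its translation, before and after oncogenic transformation. Fibroblasts were taken from 6 mouse embryos at stage E13.5, of which 3 were wild type (WT) and 3 carried 1 functional copy of Eif4e (Eif4e+/-). Each embryo gave an early passage primary culture, called untransformed, and a matched culture transformed with Ras and Myc. All 12 cultures were growing exponentially in medium with 10% serum. From each culture total RNA and RNA of high molecular weight polysomes were measured on separate arrays, which gave 24 arrays in 8 groups of 3. For polysomal RNA the cells had been treated with 100 µg/ml cycloheximide, which holds ribosomes on the message, and extracts were fractionated on a sucrose gradient. How the Eif4e allele was made, which Ras gene was used, and whether a transformed culture was a clone or a pool are not given in the sources used here.

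Values are log2 intensities, and translational efficiency (TE) is the polysomal minus the total log2 value of the same culture, as the series defines it. The 2 kinds of array have separate scales (array means between 7.47 and 7.50 for total RNA, between 3.78 and 3.79 for polysomal RNA), so TE is negative for most genes and only its differences between cultures are read. A change in polysome loading shared by all genes would not show on this scale. Cultures are named by genotype and embryo number, such as WT1 and Het1, where Het stands for Eif4e+/-. The titles number all Eif4e+/- samples as replicate 1 but give them embryo numbers 1 to 3, and the embryo numbers were used. The polysomal arrays of untransformed WT1 and transformed WT3 had the narrowest spreads (SD over probe sets of 1.15 and 1.25, against at most 1.44), and the results that gained or lost a call, or moved by over 1.5 times, in the mean of both genotypes without them are given both ways. Without both, WT2 is the only WT embryo with a complete pair, so that the WT value is then that embryo's own and is assumed to vary like the Eif4e+/- embryos.

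The labels were checked first. Within each state, Eif4e total RNA was lower in every Eif4e+/- culture than in every WT culture, by 0.30 ± 0.12 (log2, SE) in untransformed and 0.57 ± 0.12 in transformed cells, and the two-sided exact permutation test gave p = 0.1 in each state, its lowest possible value with 3 against 3. Across all genes neither difference passed limma's test (adjusted p = 1 and 0.2), and groups did not overlap for 10.9% and 10.2% of all genes. In polysomal RNA the Eif4e groups overlapped in both states. The Myc probe set fell by 1.77 ± 0.20 with transformation in all 6 embryos, and what it reads of the introduced Myc is unknown. The labelled cell type was looked at through 12 fibroblast markers, all measured, of which 7 lay above the array median on every total array. Their mean log2 value ran from 10.11 to 10.35 in untransformed and from 8.59 to 10.16 in transformed cultures. Of the markers of other cell types, 0 of 5 endothelial, 1 of 4 leukocyte, 0 of 5 epithelial, 1 of 5 neural, 2 of 5 muscle and 1 of 4 adipocyte genes lay above the median on every total array. Levels of different probes are not comparable, so these counts do not measure cell shares. The fibroblast markers' part in the transformation differences below was not tested, and fewer cells of a type and less RNA per cell cannot be told apart in such bulk samples.

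Polyamines (putrescine, spermidine and spermine) are small cations that bind nucleic acids and are needed for growth. Ornithine decarboxylase, the product of Odc1, makes putrescine and limits the rate of the pathway, and Odc1 is a textbook target of Myc whose long structured leader has been reported to make its translation sensitive to eIF4E. Antizymes bind ornithine decarboxylase and deliver it to the proteasome, and antizyme inhibitor takes antizyme away from it. Acetylation by the Sat1 product and oxidation by spermine oxidase return spermine and spermidine towards putrescine.

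The 250 bases before the start sites of Odc1, Oaz2 and Smox are shown because these genes were called higher in polysomal RNA after transformation. None of them was called in total RNA. The sequences are RefSeq's, on the plus strand of build GRCm38.p6, at chr12:17544623-17544872 for Odc1, chr9:65676298-65676547 for Oaz2 and chr2:131491612-131491861 for Smox. Capitals mark the GC box GGGCGG, or CCGCCC where it lies on the other strand.
Odc1: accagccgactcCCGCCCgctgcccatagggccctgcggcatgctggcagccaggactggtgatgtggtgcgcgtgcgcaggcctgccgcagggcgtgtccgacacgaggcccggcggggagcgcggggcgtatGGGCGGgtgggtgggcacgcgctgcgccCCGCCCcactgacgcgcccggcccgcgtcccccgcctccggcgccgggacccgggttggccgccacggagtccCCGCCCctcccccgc
Oaz2: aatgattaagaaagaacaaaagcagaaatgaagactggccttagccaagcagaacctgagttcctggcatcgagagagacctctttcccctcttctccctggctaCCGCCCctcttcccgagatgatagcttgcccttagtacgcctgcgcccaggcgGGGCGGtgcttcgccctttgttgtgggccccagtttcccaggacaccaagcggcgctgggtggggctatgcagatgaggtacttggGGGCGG
Smox: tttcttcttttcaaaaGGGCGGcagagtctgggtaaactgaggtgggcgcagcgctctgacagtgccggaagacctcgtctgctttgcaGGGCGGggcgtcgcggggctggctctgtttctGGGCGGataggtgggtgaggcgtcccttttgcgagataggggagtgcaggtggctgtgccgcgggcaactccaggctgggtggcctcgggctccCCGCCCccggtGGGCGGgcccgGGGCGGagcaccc
Odc1 holds 4 such boxes, Oaz2 holds 3 and Smox holds 6, none of which overlap. Of 32851 mouse promoter windows of the same length, 32.7% hold at least 1 and 8.47% hold 3 or more. The E-box CACGTG, the letters that Myc and its partner Max are known to bind, is absent from these 3 windows and present in 6.02% of all windows, and TATAAA, searched on both strands, is also absent from them and present in 12.4%. Absence here says only that these letters are not in the windows. Of the other listed genes, Sat1 holds 2 GC boxes, Amd1 holds 1 and Oaz1 holds 0, and Azin1 and Srm have no entry. The 3 windows shown were chosen by their genes' polysomal rise, so their counts are a description. Any link between these letters and the genes' values was not tested.

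The transformation differences that passed were those of Odc1, Oaz2 and Smox in polysomal RNA, of Azin1 in total RNA and of Odc1 in TE. Across both genotypes 3 of 6 members passed limma's moderated test as higher in polysomal RNA (Benjamini-Hochberg adjusted p under 0.05 over 14830 genes), against 3.67% of all genes called higher. In total RNA 1 of 6 members passed as higher, against 15% of all genes, and in TE 1 of 6, against 1.81%. At an unadjusted p under 0.05 in limma's test the TE count was 4 of 6 (Odc1, Oaz2, Sat1 and Smox), where 16.6% of all genes had such a p. No member passed as lower, where 15.8% of all genes did in total RNA, 4.05% in polysomal RNA and 0.971% in TE. The 6 members had a median log2 difference of 0.22 in total RNA, 0.73 in polysomal RNA and 0.51 in TE, beside 0.03, 0.01 and 0.01 over all genes. All 6 differences were positive in each measure, where 56.1%, 51.7% and 51.4% of all genes had a positive difference. The members were chosen with earlier results of these data known, so these counts and medians are a description.

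**Figure D1:**
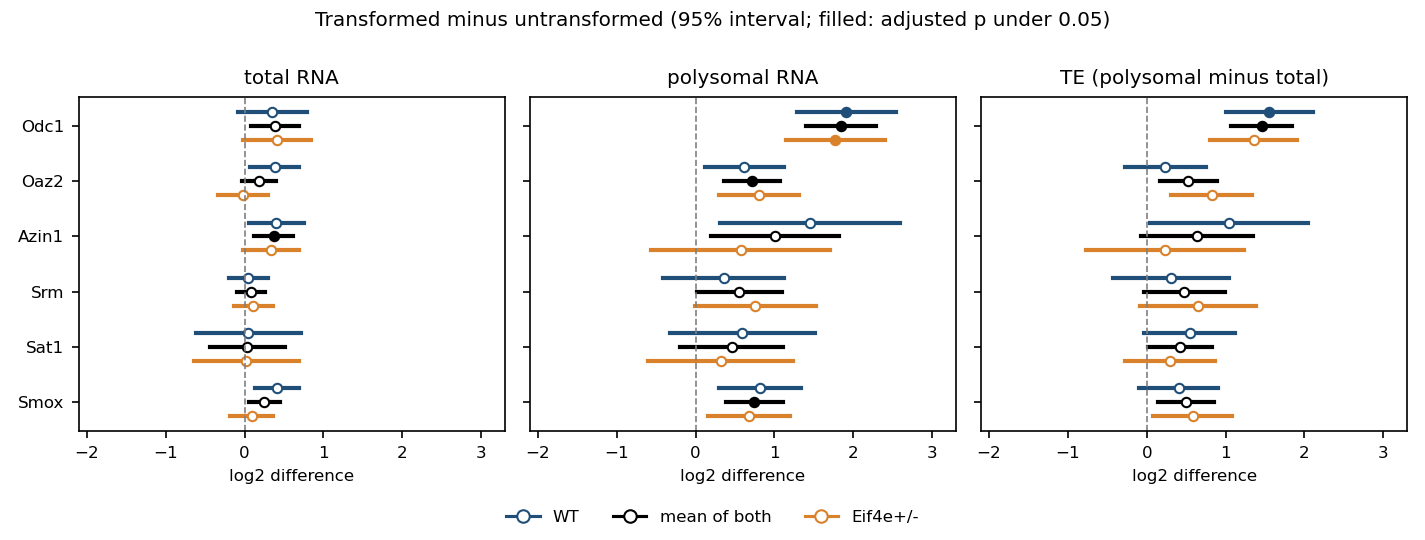
Log2 difference between transformed and untransformed cultures of the same embryos (horizontal axis) for the 6 measured polyamine genes (vertical axis) in total RNA, polysomal RNA and TE, separately for WT and Eif4e+/- and for their mean, with 95% intervals, and filled points where the adjusted p is under 0.05. The mean Odc1 difference is 0.38 in total RNA, 1.84 in polysomal RNA and 1.46 in TE.

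Odc1 polysomal RNA was higher after transformation in every embryo, while its total RNA difference did not pass the test. In polysomal RNA the Odc1 log2 value was 6.04, 6.41 and 6.32 in untransformed WT cultures 1 to 3 and 6.37, 5.98 and 6.08 in untransformed Eif4e+/- cultures 1 to 3. It was 7.83, 9.14 and 7.54 in transformed WT and 8.10, 7.64 and 7.999 in transformed Eif4e+/- cultures. The 6 transformed values all lay above the 6 untransformed ones, and WT2 was the highest. The share of all genes with such a separation was not counted. By the looser rule of a rise in all 6 embryos it was 7.32%. The mean difference was 1.84 ± 0.19 (log2, SE, 6 embryos), a 3.58-fold rise with a 95% interval of 1.40 to 2.29 on the log2 scale and a limma adjusted p of 0.00196. Among 14830 genes it ranked 27th from the highest. The exact sign-flip test over the 6 embryo differences, two-sided, gave p = 0.03125, the smallest 6 pairs allow.

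In total RNA Odc1 read 12.24, 11.85 and 12.04 in untransformed WT and 12.15, 12.04 and 12.08 in untransformed Eif4e+/- cultures. The transformed values were 12.07, 12.76 and 12.37 in WT and 12.62, 12.49 and 12.39 in Eif4e+/- cultures. Transformed WT1 was lower than its untransformed partner by 0.17, and the other 5 embryos went up. The mean difference of 0.38 ± 0.13 (1.30-fold) had a limma adjusted p of 0.0632 and did not pass. It passed without embryo WT1 (0.52, adjusted p = 0.017), with quantile normalization (0.46, adjusted p = 0.0194) and without the embryo as a block (adjusted p = 0.0189). Odc1 lay between percentiles 98.7 and 99.9 of gene values on the total arrays, where the highest gene value was 13.36. Whether the top of the array's scale narrowed its total RNA difference was not tested. TE subtracts the total value, so the Odc1 TE difference below carries the same untested limit.

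Odc1 TE rose with transformation. It was -6.20, -5.44 and -5.72 in untransformed WT, -5.79, -6.06 and -6.00 in untransformed Eif4e+/-, -4.24, -3.62 and -4.83 in transformed WT and -4.52, -4.85 and -4.40 in transformed Eif4e+/- cultures. The transformed and untransformed values did not overlap, and the share of all genes with such a separation in TE was not counted. The mean difference was 1.46 ± 0.17 (2.75-fold; 95% interval 1.07 to 1.85; limma adjusted p = 0.00432), which ranked 68th from the highest of 14830 genes, and all 6 embryos went up, by 0.90 to 1.96. Leaving out any 1 embryo kept the polysomal call (1.64 to 2.01, adjusted p at most 0.0188) and the TE call (1.36 to 1.62, adjusted p at most 0.0402). Without the narrow arrays the differences were 2.25 and 1.59.

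Srm, which encodes spermidine synthase, was the other synthesis gene measured, and it passed no transformation test. Its polysomal value was 6.95, 7.95 and 7.78 in untransformed WT, 7.93, 7.62 and 7.75 in untransformed Eif4e+/-, 8.37, 7.72 and 7.65 in transformed WT and 8.77, 7.94 and 8.86 in transformed Eif4e+/- cultures. WT2 and WT3 went down and the other 4 embryos went up. The difference was 0.56 ± 0.23 (limma adjusted p = 0.216), with 0.08 ± 0.07 in total RNA (adjusted p = 0.47) and 0.48 ± 0.23 in TE (adjusted p = 0.341). Without WT1, the embryo whose untransformed polysomal array had a narrow spread, they were 0.29 in polysomal RNA and 0.25 in TE, and without both narrow arrays 0.27 and 0.13. Srm total RNA lay between 10.42 and 10.96 in all 12 cultures.

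**Figure D2:**
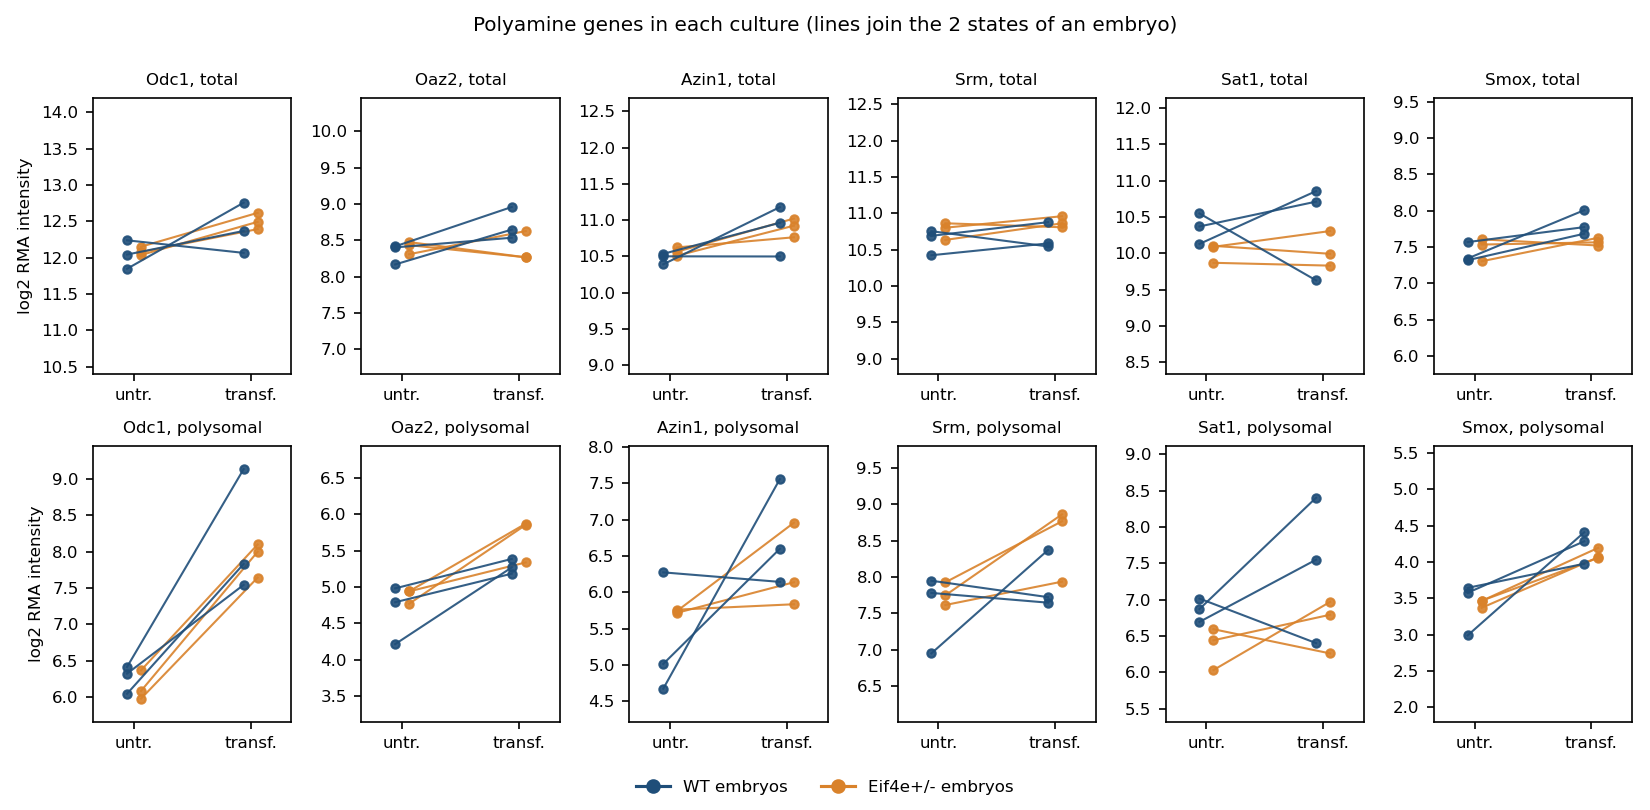
Log2 value of the 6 polyamine genes (vertical axis) in untransformed and transformed cultures (horizontal axis), with 1 line per embryo coloured by genotype, in total and polysomal RNA. All panels span the same log2 range. The polysomal lines of Odc1, Oaz2 and Smox rise in 6 of 6 embryos.

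Oaz2 encodes an antizyme and Azin1 an antizyme inhibitor, which act against each other on ornithine decarboxylase. Oaz2 polysomal RNA was 4.22, 4.98 and 4.79 in untransformed WT, 4.94, 4.94 and 4.77 in untransformed Eif4e+/-, 5.27, 5.39 and 5.19 in transformed WT and 5.34, 5.87 and 5.86 in transformed Eif4e+/- cultures. Every transformed value exceeded every untransformed one, a separation whose share over all genes was not counted. The mean difference was 0.71 ± 0.15 (1.64-fold, 6 of 6 embryos higher, limma adjusted p = 0.031). This call was lost without WT1 (adjusted p = 0.087), WT2 (0.0654), Het1 (0.057), Het2 (0.112) or Het3 (0.142), without both cultures with narrow arrays (0.61, adjusted p = 0.0893) and with a trended robust variance (adjusted p = 0.0588). Oaz2 total RNA differed by 0.18 ± 0.09 (adjusted p = 0.182) and TE by 0.53 ± 0.16 (adjusted p = 0.134), with 5 of 6 embryos higher in TE. The TE difference passed without WT3 (0.62, adjusted p = 0.029) and with array weights (0.53, adjusted p = 0.0351).

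Azin1 was the 1 member of 6 called higher in total RNA, where 15% of all genes were. The Odc1 difference there was of like size, at 0.38, and did not pass (limma adjusted p = 0.0632). The Azin1 total RNA values were 10.50, 10.39 and 10.54 in untransformed WT, 10.51, 10.63 and 10.57 in untransformed Eif4e+/-, 10.50, 11.18 and 10.96 in transformed WT and 10.92, 10.76 and 11.02 in transformed Eif4e+/- cultures. WT1 did not move, and the other 5 embryos went up by 0.14 to 0.79. The difference was 0.37 ± 0.11 (1.29-fold, limma adjusted p = 0.0367). This call was lost without WT2 (adjusted p = 0.0792), WT3 (0.0697), Het1 (0.111) or Het3 (0.117).

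In polysomal RNA Azin1 was the most variable member between embryos, with differences from -0.13 in WT3 to 2.89 in WT2. It read 5.02, 4.68 and 6.28 in untransformed WT, 5.72, 5.76 and 5.75 in untransformed Eif4e+/-, 6.60, 7.56 and 6.15 in transformed WT and 6.14, 5.84 and 6.96 in transformed Eif4e+/- cultures. The mean of 1.01 ± 0.35 did not pass (limma adjusted p = 0.133), nor did the TE difference of 0.64 ± 0.31 (adjusted p = 0.35). Both passed without WT3, the embryo whose transformed polysomal array had a narrow spread, at 1.40 in polysomal RNA (adjusted p = 0.00232) and 1.04 in TE (adjusted p = 0.00216). They also passed with array weights (1.33, adjusted p = 0.0109, and 0.97, adjusted p = 0.0175). With both narrow arrays left out they were 1.73 (adjusted p = 0.00338) and 1.17 (adjusted p = 0.00939), where the WT arm is WT2 alone, the embryo with the largest Azin1 difference.

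Smox encodes spermine oxidase and Sat1 spermidine/spermine acetyltransferase. Smox polysomal RNA was 3.64, 2.99 and 3.58 in untransformed WT, 3.37, 3.47 and 3.46 in untransformed Eif4e+/-, 3.98, 4.41 and 4.28 in transformed WT and 4.07, 4.06 and 4.19 in transformed Eif4e+/- cultures. The untransformed values lie about the median of all probe sets on the polysomal arrays (3.40 to 3.52), and every transformed value lay above them. How many of all genes separate in this way was not counted. The difference was 0.75 ± 0.16 (1.68-fold, 6 of 6 embryos higher, limma adjusted p = 0.0295). It was lost without WT2 (adjusted p = 0.067), Het1 (0.107), Het2 (0.0924) or Het3 (0.128). Smox total RNA differed by 0.25 ± 0.08 (adjusted p = 0.059), which passed without WT3 (0.30, adjusted p = 0.0407) and without the embryo block (adjusted p = 0.0269), and TE by 0.50 ± 0.16 (adjusted p = 0.149), which passed with array weights (0.61, adjusted p = 0.0218).

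Sat1 moved in opposite directions in different embryos. Its total RNA was 10.55, 10.37 and 10.13 in untransformed WT, 10.10, 10.09 and 9.87 in untransformed Eif4e+/-, 9.63, 10.71 and 10.86 in transformed WT and 10.00, 10.31 and 9.83 in transformed Eif4e+/- cultures. WT1 went down by 0.92 and WT3 up by 0.73. The mean difference was 0.04 ± 0.20 in total RNA (limma adjusted p = 0.913), 0.46 ± 0.28 in polysomal RNA (adjusted p = 0.432) and 0.42 ± 0.18 in TE (adjusted p = 0.286). The total RNA difference was 0.28 without WT1 and turned to -0.13 without WT3, -0.04 without WT2 and -0.01 without Het2. In polysomal RNA it was 0.76 without WT1, 0.22 without WT3 and 0.30 without Het3, and in TE 0.25 without Het3.

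Of 6 members, those higher in polysomal RNA in all 6 embryos were Odc1, Oaz2 and Smox, where 7.32% of all genes were, and Odc1 was the 1 member higher in TE in all 6, where 6.53% were. The polysomal difference exceeded the total RNA difference by 0.42 to 0.64 in the other 5 members and by 1.46 in Odc1. Whether Odc1 differs from those members in this was not tested.

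**Figure D3:**
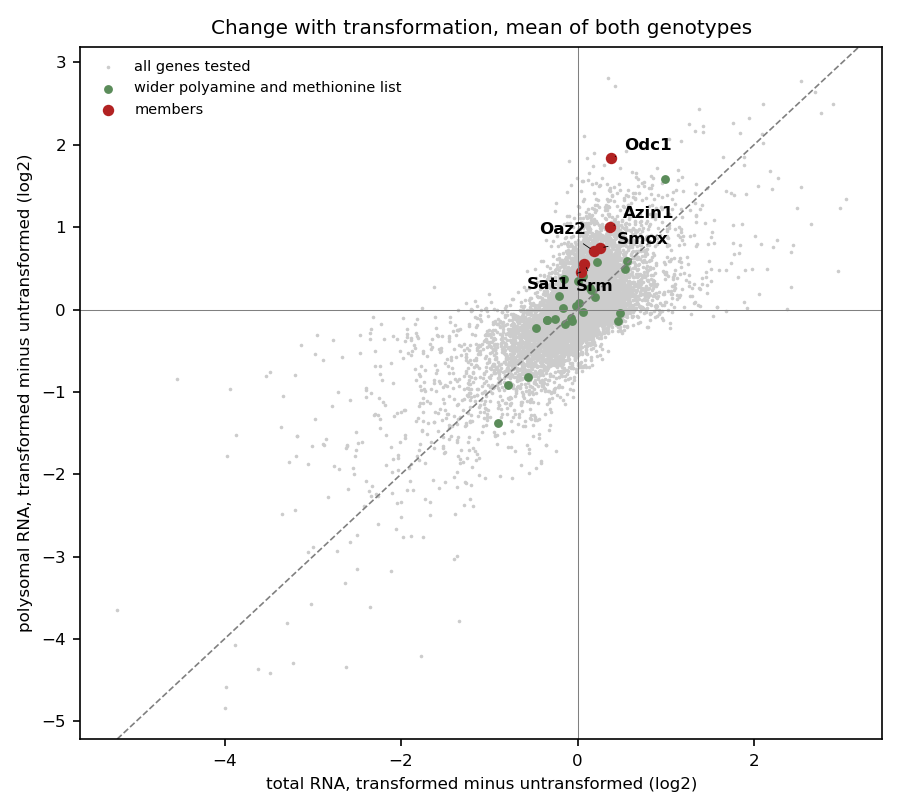
Transformation difference in total RNA (horizontal axis, log2) against that in polysomal RNA (vertical axis, log2), mean of both genotypes, for all genes tested (grey) and the 6 polyamine genes (labelled). Green points are the tested genes of the wider list of polyamine supply and use described below. The line marks equal differences, and all 6 polyamine genes lie above it, Odc1 farthest at 0.38 and 1.84.

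Within each genotype Odc1 was the member that passed. In WT it rose by 1.91 ± 0.27 in polysomal RNA (limma adjusted p = 0.0194, where 0.378% of genes were called higher) and by 1.56 ± 0.24 in TE (adjusted p = 0.0292, 0.506%). In Eif4e+/- it rose by 1.77 ± 0.27 in polysomal RNA (adjusted p = 0.0223, 0.479%), and its TE difference of 1.36 ± 0.24 did not pass (adjusted p = 0.0651, where 0.297% of genes were called), though it passed without the embryo block (adjusted p = 0.0362) and without WT3 (adjusted p = 0.00199). In total RNA 0 of 6 members passed in WT, where 16.7% of genes did, and 0 of 6 in Eif4e+/-, where 14.3% did. At an unadjusted p under 0.05 these counts were 3 (Oaz2, Azin1 and Smox) in WT, where 32.2% of all genes had such a p, and 0 in Eif4e+/-, where 31.4% did. The WT polysomal call was lost without WT1 (adjusted p = 0.106), WT2 (0.0899), Het1 (0.0565), Het2 (0.0558) or Het3 (0.0564), and the WT TE call without the same embryos (0.188, 0.214, 0.0868, 0.0801 and 0.082). The Eif4e+/- polysomal call was lost without Het1 (0.154), Het2 (0.126) or Het3 (0.221).

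The transformation difference itself was compared between genotypes. Of 6 members 0 passed in total RNA, polysomal RNA or TE, as did 0% of all genes in each, and 0 had an unadjusted p under 0.05 in the limma test, beside 4.88%, 2.12% and 1.95% of all genes. For Odc1 the Eif4e+/- difference minus the WT difference was -0.14 in polysomal RNA (95% interval -1.03 to 0.75) and -0.20 in TE (-0.98 to 0.58). Both intervals are wide beside the Odc1 rise itself. The widest interval was that of Azin1 in polysomal RNA (-0.88, from -2.49 to 0.74).

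Eif4e dose was next compared at each state, and no polyamine gene passed. In untransformed cells 0 of 6 members were called in total RNA, polysomal RNA or TE, against 0% of all genes in each, and 0 had an unadjusted p under 0.05 in limma's test, beside 2.37%, 1.67% and 1.45% of all genes. In transformed cells 0 of 6 were called, against 0.0472% of genes in total RNA and 0% in polysomal RNA and TE. Unadjusted p-values under 0.05 were found there for Oaz2 and Smox in total RNA (9.3% of all genes), for 0 members in polysomal RNA (3.22%) and for Oaz2 in TE (2.9% of all genes). The count of members called stayed at 0 in each of these 6 comparisons under every alternative run.

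For Odc1 the Eif4e+/- minus WT difference in polysomal RNA was -0.12 in untransformed cells (95% interval -0.83 to 0.60) and -0.26 in transformed cells (-0.97 to 0.46). In TE it was -0.16 (-0.77 to 0.44) and -0.36 (-0.96 to 0.24), and in total RNA 0.05 and 0.10. The Odc1 groups overlapped in every measure and state. In the main fit a difference of 1 log2 unit, or 2-fold, downward lies outside these intervals in both states, narrowly in transformed cells. Moderate downward differences lie inside them. With each embryo left out, the transformed difference ran from -0.57 to 0.23 in polysomal RNA and from -0.66 to -0.06 in TE.

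**Figure D4:**
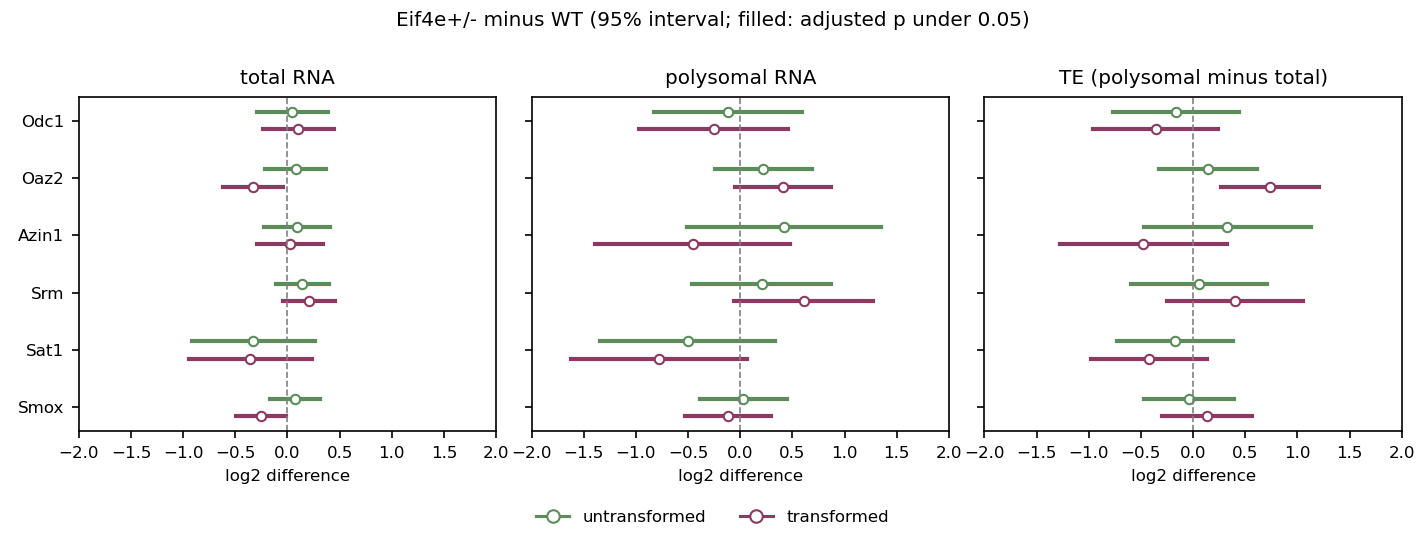
Eif4e+/- minus WT difference (horizontal axis, log2) of the 6 polyamine genes (vertical axis) in total RNA, polysomal RNA and TE, in untransformed and transformed cultures, with 95% intervals. No point is filled, as no adjusted p is under 0.05, and the interval of Oaz2 TE in transformed cells runs from 0.27 to 1.21.

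Oaz2 had the largest TE difference by genotype among the members. In transformed cells its TE was -3.38, -3.15 and -3.78 in WT and -2.93, -2.75 and -2.41 in Eif4e+/- cultures, so that every Eif4e+/- value was the higher. The difference was 0.74 ± 0.22 (1.67-fold), with a limma adjusted p of 1 and p = 0.1 in the two-sided exact permutation test, its lowest possible value. Non-overlapping groups were found for 8.3% of all genes in this comparison. It joined a total RNA difference of -0.33 ± 0.13 (adjusted p = 0.481) and a polysomal difference of 0.41 ± 0.21 (adjusted p = 1). In untransformed cells the TE difference was 0.15, and the change between states was 0.59 (95% interval -0.13 to 1.32).

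Sat1 was lower in every untransformed Eif4e+/- culture than in every WT culture, by 0.33 ± 0.27 in total RNA and 0.51 ± 0.39 in polysomal RNA, with a limma adjusted p of 1 and an exact permutation p of 0.1 in each. Its polysomal values were 7.01, 6.69 and 6.87 in WT and 6.59, 6.44 and 6.03 in Eif4e+/-. Non-overlap occurred for 10.9% of all genes in total RNA and 5.74% in polysomal RNA. In transformed cells the Sat1 groups overlapped. Smox total RNA was 7.68, 8.01 and 7.77 in transformed WT and 7.52, 7.63 and 7.56 in transformed Eif4e+/- cultures, which do not overlap (-0.25 ± 0.11, limma adjusted p = 0.514), as was found for 10.2% of all genes.

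Other genes of polyamine supply and use were taken from a list of 34, covering arginine and ornithine enzymes, methionine salvage, hypusine synthesis and transport, of which 27 were tested. In total RNA 5 of 27 rose and 7 fell with transformation, against 30.8% of all genes called, and the list median was -0.02. In polysomal RNA 2 rose (Adi1 and Mri1) and 3 fell (Oat, Slc3a2 and Cav1), against 7.72% of all genes. In TE 0 of 27 passed limma's test, against 2.78%, and 7 had an unadjusted p under 0.05, as 16.6% of all genes did. No gene of the list passed a genotype test, where at most 0.0472% of all genes did. The most with an unadjusted p under 0.05 in any of those comparisons was 3 of 27, in transformed total RNA, where 9.3% of all genes had such a p.

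Among the genes called, the 4 with the largest total RNA rises were Adi1 and Mri1, enzymes of methionine salvage, which recycles the methylthioadenosine that spermidine and spermine synthesis release, Arg2, a mitochondrial arginase that makes ornithine, and Mtr, methionine synthase. Adi1 went from 9.09 ± 0.11 to 10.08 ± 0.08 (SD, n = 6) and Mri1 from 7.30 ± 0.13 to 7.85 ± 0.12, both in 6 of 6 embryos (limma adjusted p = 0.000142 and 0.0049). In total RNA 16.6% of all genes were higher in all 6 embryos. Arg2 differed by 0.54 (adjusted p = 0.0344) and Mtr by 0.46 (adjusted p = 0.0232). Of these 4 genes, Adi1 and Mri1 were also called higher in polysomal RNA. Arg2 polysomal RNA was higher in 5 of 6 embryos and was not called. Mtr went the other way in polysomal RNA, from 3.59 to 3.45 (lower in 4 of 6 embryos). Its TE went from -4.93 to -5.53 (lower in 6 of 6, as for 4.42% of all genes) and was not called.

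The 4 largest falls among the genes called were Cav1 (caveolin-1, -0.90, limma adjusted p = 0.0375), Oat (ornithine aminotransferase, -0.79, adjusted p = 0.00291), Slc3a2 (the heavy chain of amino acid exchangers, -0.56, adjusted p = 0.0267) and Slc7a1 (a cationic amino acid carrier that takes up arginine, -0.47, adjusted p = 0.00209). Each of these was lower in 6 of 6 embryos, as were 15.4% of all genes in total RNA. They were picked as the largest called falls, so a shared direction is no separate support. Oat went from 10.60 ± 0.04 to 9.81 ± 0.32 (SD, n = 6). The alternative settings were run for the 6 members and not for these genes.

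The genes whose total RNA pattern lay nearest to that of Odc1, by root mean square distance of centred log2 values over 12 arrays, were Rpa3 (0.103), Mrps25 (0.110), 4930430F08Rik (0.111), Trmt5 (0.115) and Fcf1 (0.115), beside a median of 0.288 over all genes. Among the members Azin1 was nearest, at 0.123 and the 11th of all genes, followed by Smox at 0.204, Srm at 0.268, Oaz2 at 0.312 and Sat1 at 0.361. These distances describe the 12 arrays, which share embryos, and carry no test.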

How the data were processed

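Affymetrix Mouse Gene 1.0 ST arrays were normalized by the authors as log2 RMA intensities, per the labels' processing notes and the series' design text. The RMA version and chip definition are not given in the sources used here. Of 25668 probe sets, 20777 had 1 gene symbol, 232 several and 4659 none in the platform annotation. Only probe sets with 1 gene symbol were used. The brightest of them stood for each gene, and a gene was kept if 3 or more arrays had it above their own percentile 40. Tests used limma 3.58.1 in R 4.3.3, on group means for genotype and with the embryo as a block for transformation and for its difference between genotypes, with Benjamini-Hochberg adjustment over all genes. The block rests on the labels, which give embryo numbers: deviations of same-embryo cultures correlated at -0.0584 to 0.219 in total RNA, -0.438 to 0.062 in polysomal RNA and -0.413 to 0.0972 in TE. Members, other genes of the pathway, named genes and markers were chosen with earlier results of these data known. Named genes are all members, Eif4e and Myc, up to 4 called genes each way of the wider list by total RNA change, and the 5 nearest Odc1. The fits were tried on simulated total RNA values with independent noise and, for transformation, a shared embryo effect. That trial covers neither the polysomal and TE values nor negative correlations between cultures of an embryo. With 3 embryos a group, the number of arrays limits the precision. Alternatives were array weights, a trended robust variance, a stricter filter, quantile normalization, the block added or removed, only the groups compared, each embryo left out and, chosen after seeing the data, the narrow arrays left out.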

Additional observations from a re-analysis of the deposited data

How the results depend on the processing

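Members called changed as follows. With quantile normalization the count went from 0 to 1 in WT total RNA, from 1 to 2 in total RNA over both genotypes and from 0 to 1 in Eif4e+/- TE. With array weights it went to 2 in WT and 2 in Eif4e+/- polysomal RNA, 2 in WT TE, 1 in Eif4e+/- TE and 4 in mean TE, and from 3 to 4 in mean polysomal RNA. Without the replicate block (the embryo) it was 1 in WT total RNA, 3 in mean total RNA, 2 in WT polysomal RNA and 1 in Eif4e+/- TE. With only the groups compared it was 1 in Eif4e+/- total RNA, 0 in WT and 4 in Eif4e+/- polysomal RNA, and 0 in WT and 2 in Eif4e+/- TE, and the Odc1 WT difference then had an adjusted p of 0.179 in polysomal RNA and 0.288 in TE. Without the narrow arrays, chosen after seeing the data, it was 3 in WT and 4 in Eif4e+/- polysomal RNA, 2 in WT, 2 in Eif4e+/- and 2 in mean TE. The WT arm is then embryo WT2 alone, assumed to vary like the Eif4e+/- embryos, so the WT counts are no test over WT embryos. A trended robust variance ended the Oaz2 polysomal call (adjusted p = 0.0588), which left 2 in mean polysomal RNA. Leaving out each embryo gave 0 to 1 members in WT total RNA, 0 to 2 in mean total RNA, 0 to 2 in WT and in Eif4e+/- polysomal RNA, 1 to 4 in mean polysomal RNA, 0 to 2 in WT and in Eif4e+/- TE and 1 to 3 in mean TE. The number of genes called over all genes ranged from 306 to 2746 in mean polysomal RNA (1145 as reported) and from 94 to 1540 in mean TE (413). The mean Odc1 calls in polysomal RNA and TE held under all alternatives run. For genotype, a replicate block by embryo number changed no member's call: Odc1 in transformed polysomal RNA stayed at -0.26 ± 0.35 (adjusted p = 1). Of 108 member values, 8 were called, and 6 of these lost the call under some alternative. No called value changed sign. Of the 100 not called, 32 changed sign and 16 passed under some alternative. The causes of these changes were not tested.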
